A study of Mus musculus with 6 samples.

Results

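The small heat shock proteins are a family of chaperones that hold unfolding proteins in a soluble state without using ATP. They share a central alpha-crystallin domain and assemble into oligomers, and several are abundant in skeletal muscle, heart and smooth muscle, where they protect the filaments of the contractile apparatus. BAG3 is a co-chaperone that links small heat shock proteins, above all HSPB8, to the HSP70 chaperone, and steers damaged filament proteins such as filamin C to autophagy. Some of these genes respond to heat shock factor 1 (HSF1), the transcription factor that induces chaperones under protein stress. The set described here holds 8 genes: 7 genes of small heat shock proteins (Hspb1, Cryab, Hspb2, Hspb3, Hspb6, Hspb7 and Hspb8) and Bag3. They were picked by gene symbol from 29072 genes in the table, with their knockout and wildtype values already known, so their values in that comparison are a description and support nothing by themselves.

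The tissue was brown fat of mice from the interscapular depot, which burns fuel to make heat. There were 3 libraries from UCP1(-/-) mice, which lack a working gene for the uncoupling protein of brown fat mitochondria (knockout), and 3 from wildtype mice, all of the C57BL/6J strain. The labels give no age, sex, housing temperature or time of collection. They do not say that replicates came from separate animals, so errors cover only differences among these samples, and those may be technical. Levels are the authors' RPKM, read numbers scaled to transcript length and library depth, and the spacing of low values implied 15600000 to 17900000 reads per library. The targeted gene Ucp1 averaged 379 ± 8.83 RPKM in knockout libraries and 2653 ± 814 RPKM in wildtype libraries (SD, n = 3 each), so its RNA was still counted in knockout libraries, all of them below the wildtype libraries.

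The stretches before the start sites of these genes are shown because several of these genes are known targets of HSF1, whose binding element can be read from the letters. RefSeq windows of GRCm38.p6, from 250 bases before to 50 bases after a start site, were at hand for 6 of the 8 genes, with a pair of windows for Hspb6. The sequence GAANNTTC, which holds a pair of facing repeats of the heat shock element, was searched together with TTCNNGAA, and each reads the same on both strands. One of them lies in 15.1% of 32851 windows of the same length. Of the 6 genes, 5 hold GAANNTTC, and none holds TTCNNGAA. In Hspb1, Hspb6, Hspb8 and Bag3 the matching letters are identical, GAAGTTTC, a version chosen after it was seen that lies on either strand in 1.21% of all windows. It begins at position -117 from the start site in Hspb1, -120 in the downstream window of Hspb6, 3 in Hspb8 and 43 in Bag3, and Hspb1 has a further match, GAACCTTC, at -97. Hspb3 holds GAATTTTC at -224 and, at -12, CTATAAATAG, a match to the consensus of the muscle transcription factor MEF2, which lies in 0.557% of all windows. In the window of Hspb7 and the upstream window of Hspb6 neither motif was found, nor a CArG box, the element bound by serum response factor, which lies in 1.63% of all windows. A match is a description of letters, not a binding site. The windows are chr5:135887669-135887968 on the plus strand (Hspb1), chr7:30553051-30553350 on the plus strand (Hspb6), chr5:116422815-116423114 on the minus strand (Hspb8), chr7:128523333-128523632 on the plus strand (Bag3) and chr13:113663627-113663926 on the minus strand (Hspb3). Capitals mark GAANNTTC and the MEF2 match.
Hspb1: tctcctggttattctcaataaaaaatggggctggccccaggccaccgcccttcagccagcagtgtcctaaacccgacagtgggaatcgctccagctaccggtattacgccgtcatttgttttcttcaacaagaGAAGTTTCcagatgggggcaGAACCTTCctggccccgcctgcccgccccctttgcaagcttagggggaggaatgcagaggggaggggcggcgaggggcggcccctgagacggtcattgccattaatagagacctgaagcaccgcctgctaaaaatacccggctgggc
Hspb6: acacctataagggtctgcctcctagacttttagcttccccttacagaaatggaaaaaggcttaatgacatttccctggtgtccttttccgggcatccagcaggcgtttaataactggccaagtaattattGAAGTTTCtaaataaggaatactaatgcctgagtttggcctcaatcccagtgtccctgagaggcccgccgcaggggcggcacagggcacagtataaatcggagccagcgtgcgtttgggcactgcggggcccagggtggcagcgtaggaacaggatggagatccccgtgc
Hspb8: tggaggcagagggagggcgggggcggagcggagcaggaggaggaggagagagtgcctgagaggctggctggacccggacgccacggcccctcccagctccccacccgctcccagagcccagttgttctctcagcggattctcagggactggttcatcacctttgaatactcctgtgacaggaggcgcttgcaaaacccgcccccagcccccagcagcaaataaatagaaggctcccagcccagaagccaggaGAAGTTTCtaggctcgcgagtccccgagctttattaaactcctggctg
Bag3: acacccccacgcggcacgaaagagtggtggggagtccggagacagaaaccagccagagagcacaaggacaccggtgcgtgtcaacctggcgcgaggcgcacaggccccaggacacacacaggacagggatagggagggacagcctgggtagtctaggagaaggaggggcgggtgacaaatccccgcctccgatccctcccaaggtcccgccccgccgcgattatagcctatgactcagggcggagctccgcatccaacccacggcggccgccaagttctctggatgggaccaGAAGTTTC
Hspb3: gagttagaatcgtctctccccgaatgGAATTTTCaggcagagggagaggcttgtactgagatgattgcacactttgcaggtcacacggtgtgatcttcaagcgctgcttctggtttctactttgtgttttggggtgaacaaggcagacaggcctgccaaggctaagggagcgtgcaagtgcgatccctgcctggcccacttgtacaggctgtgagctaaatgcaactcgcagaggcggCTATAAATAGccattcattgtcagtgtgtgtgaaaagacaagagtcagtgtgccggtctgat

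In knockout brown fat Hspb8 was the most abundant gene of the set at 59.1 ± 7.76 RPKM (SD, n = 3), then Hspb6 at 34.8 ± 4.44 RPKM, Bag3 at 30.3 ± 1.45 RPKM and Cryab at 25.5 ± 4.41 RPKM, while Hspb1 followed at 8.37 ± 0.651 RPKM. Hspb6 and Bag3 overlapped there, as did Bag3 and Cryab. In wildtype brown fat the order differed: Hspb8 at 35.3 ± 7.72 RPKM and Bag3 at 28.4 ± 7.84 RPKM came first, with overlapping libraries (SD, n = 3 each). Hspb1 at 11.98 ± 1.69 RPKM, Cryab at 11.6 ± 4.20 RPKM and Hspb6 at 10.7 ± 1.59 RPKM came next, with overlapping libraries, so their order is within their spread. Hspb7, Hspb2 and Hspb3 averaged under 1 RPKM in wildtype libraries. The summed level of the 7 small heat shock genes was 136 ± 8.22 RPKM in knockout libraries and 71.2 ± 12.5 RPKM in wildtype libraries. Hspb1 made up 6.14 ± 0.125% of that sum in knockout libraries and 16.9 ± 0.704% in wildtype libraries, and Hspb6 made up 25.5 ± 1.99% in knockout libraries and 15.3 ± 3.10% in wildtype libraries. Hspb8 kept the largest share in both groups, 43.5 ± 5.44% in knockout libraries and 49.6 ± 6.84% in wildtype libraries, with overlapping libraries.

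The fit across the table used limma on log2(RPKM + 1) for genes whose knockout or wildtype mean reached 1 RPKM, with p-values adjusted by the Benjamini-Hochberg method and a threshold of 0.05. Of the 8 genes, 7 were tested. Hspb2 and Hspb7 entered only through the knockout group, where they are higher, and Hspb3 was below the limit in both groups. Of the 7, 5 passed as higher in knockout libraries, 1 passed as lower and 1 did not pass. Over all 11541 tested genes, 7.0% were called higher (808), 0.745% lower (86) and 7.75% in either direction; after rescaling the libraries by the median of ratios, 492 were higher (4.26%) and 153 lower (1.33%), 5.59% in all. Since the genes were picked with this comparison known, nothing is read from their count. All tested genes together had a median log2 change of 0.076, and -0.007 after that rescaling. Over the 7 tested genes of the set it was 0.74. The libraries of the 2 groups did not overlap for 7 of the 8 genes, 6 of them higher and 1 lower in knockout libraries. Of all tested genes, 29.4% did not overlap, 24.3% with knockout libraries higher and 5.14% with knockout libraries lower. The added 1 RPKM makes the log2 changes of low genes smaller than their folds, and errors are moderated SE.

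**Figure D1:**
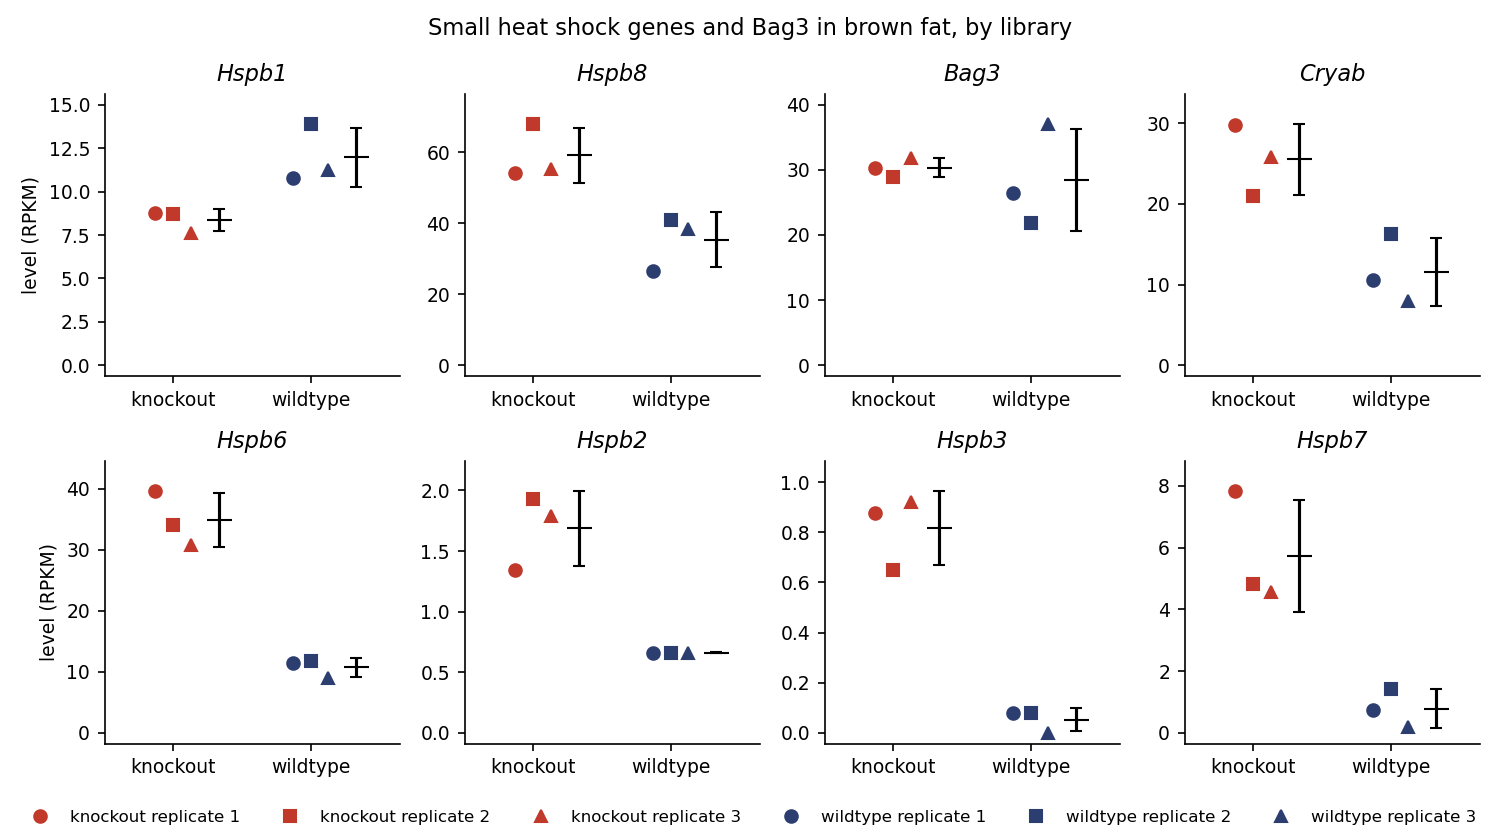
Level of each gene (RPKM, linear axis) in the 3 knockout and 3 wildtype libraries, with symbols for replicate numbers and, beside them, the mean and SD (n = 3). All knockout libraries lie above all wildtype libraries for Hspb8, Cryab, Hspb6, Hspb2, Hspb3 and Hspb7 and below them for Hspb1, while Bag3 overlaps.

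Hspb1 encodes the mouse counterpart of human HSP27, a stress-inducible small heat shock protein that binds actin filaments in many cell types. It was the 1 gene of the set that was lower in the knockout group. Its level was 8.78, 8.70 and 7.62 RPKM in knockout libraries, against 10.8, 13.9 and 11.2 RPKM in wildtype libraries. The groups did not overlap, with knockout replicate 1 and wildtype replicate 1 the closest. The log2 change was -0.47 (SE 0.11), a level 1.43-fold lower. Each level rests on 123 to 202 reads, by the implied depth. The call was lost in 6 of 14 alternative analyses: with no filter on low values, with all rows of a gene summed, without each knockout replicate in turn and without wildtype replicate 2.

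Hspb8 and Bag3 encode the partners of the complex that feeds chaperone-assisted autophagy. Hspb8 stood at 54.1, 68.0 and 55.2 RPKM in knockout libraries, against 26.6, 41.0 and 38.5 RPKM in wildtype libraries. Every knockout library lay above the wildtype libraries, and wildtype replicate 1 was the lowest of all. The log2 change was 0.74 (SE 0.16), a level 1.67-fold higher. With median-of-ratios scaling, with no filter or without any 1 knockout replicate, it no longer passed. Bag3 stood at 30.3, 28.9 and 31.8 RPKM in knockout libraries, against 26.5, 21.8 and 37.1 RPKM in wildtype libraries. The knockout libraries lay inside the range of the wildtype libraries, and the log2 change of 0.12 (SE 0.16) did not pass. Without wildtype replicate 2, the lowest for Bag3, the change was -0.05, so no direction can be given. The ratio of Hspb8 to Bag3 RPKM was 1.78, 2.36 and 1.74 in knockout libraries, against 1.0, 1.88 and 1.04 in wildtype libraries, with wildtype replicate 2 above a pair of knockout libraries.

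Cryab encodes alpha-B-crystallin, a chaperone of desmin filaments that is abundant in lens, heart and oxidative muscle fibres. It stood at 29.8, 21.0 and 25.9 RPKM in knockout libraries, against 10.6, 16.2 and 7.99 RPKM in wildtype libraries. The groups were apart, with knockout replicate 2 and wildtype replicate 2 the closest. The log2 change was 1.11 (SE 0.22), a level 2.20-fold higher, and the call was lost with no filter and without knockout replicate 1, knockout replicate 3 or wildtype replicate 1. Hspb6 encodes HSP20, a protein phosphorylated by the cyclic AMP-dependent kinase and known for its part in smooth muscle relaxation. It stood at 39.6, 34.0 and 30.8 RPKM in knockout libraries, against 11.5, 11.8 and 8.91 RPKM in wildtype libraries. No library came near those of the other group. The log2 change was 1.61 (SE 0.12), a level 3.24-fold higher, and it passed in all 14 alternatives, as did those of Hspb7 and, in the 13 that tested it, Hspb2. Both Hspb7 and Hspb2 entered the main test only through the knockout group, where they are higher, so their calls support nothing by themselves. The table holds 4 transcript rows for Hspb6, and the mean of each was 3.02-fold to 3.24-fold higher in the knockout group. For the other genes, the rows not used moved in the same direction as the row used: 21 of the 23 rows of the set were higher in the knockout group, and the other 2 were the rows of Hspb1.

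Hspb2, Hspb3 and Hspb7 are the members best known from striated muscle, and all were low in wildtype brown fat. Hspb2 encodes a protein that binds myotonic dystrophy protein kinase, and the proteins of Hspb2 and Hspb3 assemble with each other in muscle cells. Hspb2 stood at 1.34, 1.93 and 1.79 RPKM in knockout libraries, against 0.658, 0.662 and 0.661 RPKM in wildtype libraries, and the groups were apart. These values stand for 12 to 18 reads per knockout library and 6 reads per wildtype library, the same small number in all 3. The log2 change was 0.69 (SE 0.11), a level 2.55-fold higher. Hspb2 lies beside Cryab on chromosome 9 in the opposite orientation, and some annotated Cryab transcripts overlap it. The use of strand in counting is not stated, so reads in the overlap cannot be told apart. The ratio of Hspb2 to Cryab RPKM was 0.0688 ± 0.0235 in knockout libraries and 0.0619 ± 0.0210 in wildtype libraries, with overlapping values (SD, n = 3 each).

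Hspb3 stood at 0.879, 0.649 and 0.923 RPKM in knockout libraries, against 0.0784, 0.0789 and 0 RPKM in wildtype libraries. By the implied depth this is 32 reads over the knockout libraries and 2 over the wildtype libraries. The ratio per read total was 15.6, with a 95% exact binomial interval of 3.98 to 134 that covers counting error only. With no filter on low values its log2 change was 0.79 (SE 0.07), and it passed in that fit, in which 3.35% of 20459 genes were called higher, 0.327% lower and 3.68% in either direction. Hspb7, first described as a cardiovascular small heat shock protein and a binder of filamin C, stood at 7.83, 4.81 and 4.57 RPKM in knockout libraries, against 0.752, 1.42 and 0.178 RPKM in wildtype libraries. The lowest knockout library was above every wildtype library, and the wildtype libraries differed by 8.01-fold among themselves. The log2 change was 1.94 (SE 0.27) with a pseudocount of 1 RPKM and 2.99 with a pseudocount of 0.1 RPKM. The knockout mean was 7.31-fold higher than the wildtype mean.

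Markers of skeletal muscle fibres differed between the groups and among wildtype libraries. In a bulk sample, fewer cells of a type and less RNA per cell cannot be told apart. Acta1, which encodes skeletal muscle actin, stood at 425, 424 and 342 RPKM in knockout libraries, against 46.5, 57.0 and 8.54 RPKM in wildtype libraries. Wildtype replicate 3 thus held the least, 6.67-fold below wildtype replicate 2. All 15 tested markers of fast fibres rose in the knockout group, among them Myl1, a myosin light chain, at 105 ± 5.04 RPKM in knockout libraries and 28.4 ± 6.65 RPKM in wildtype libraries, and Mybpc2, a myosin-binding protein, at 14.9 ± 1.14 RPKM in knockout libraries and 1.44 ± 0.930 RPKM in wildtype libraries (SD, n = 3 each). Over all tested genes, 7.0% were called higher. The summed level of the fast markers was 1766 to 1986 RPKM in knockout libraries and 58.9 to 289 RPKM in wildtype libraries. Of 9 tested markers of slow fibres, 8 rose and 1 did not pass, with sums of 222, 123 and 132 RPKM in knockout libraries and 60.5 to 63.5 RPKM in wildtype libraries. Most of the wildtype sum is Atp2a2, a calcium pump that other cells also use, at 71.0 ± 6.77 RPKM in knockout libraries and 54.1 ± 4.49 RPKM in wildtype libraries. Without it, chosen after its values were seen, the sums were 143, 56.0 and 65.1 RPKM in knockout libraries, against 8.27, 12.2 and 2.62 RPKM in wildtype libraries, lowest in wildtype replicate 3. Tnnt1, the slow troponin T, averaged 12.1 ± 7.30 RPKM in knockout libraries and 0.680 ± 0.495 RPKM in wildtype libraries, and Mybpc1, the slow myosin-binding protein, averaged 15.2 ± 2.88 RPKM in knockout libraries and 1.55 ± 0.972 RPKM in wildtype libraries (SD, n = 3 each). Tnnt1 entered the test only through the knockout group, where it is higher, as did some other slow and fast markers. Knockout replicate 1 was the highest knockout library in the slow markers. It was also the highest for Hspb7, Cryab, Hspb6 and Hspb1, and the lowest for Hspb2 and Hspb8.

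**Figure D2:**
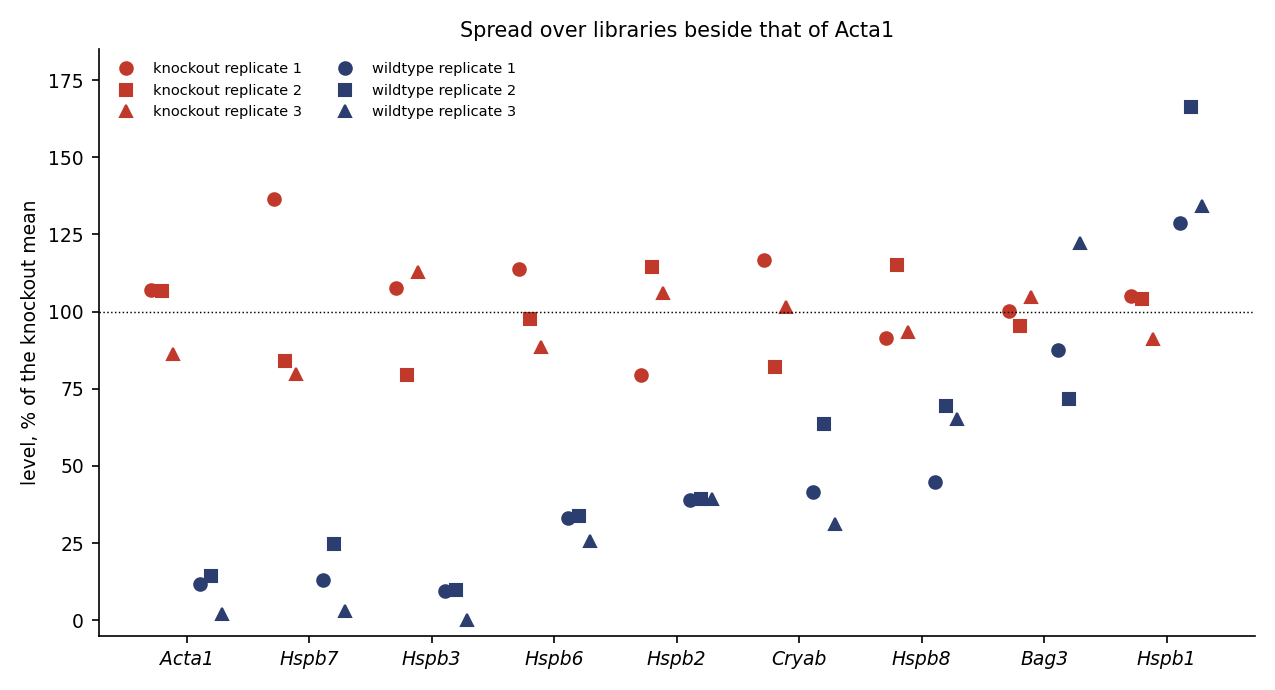
Level in each library as a percentage of the gene's knockout mean (linear axis, dotted line at 100%) for Acta1 and the 8 genes, with symbols for replicate numbers. Wildtype libraries sit at 2.2% to 14.3% for Acta1 and 3.1% to 24.8% for Hspb7, against 44.9% to 69.4% for Hspb8 and 128.8% to 166.3% for Hspb1.

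Among wildtype libraries, the highest over the lowest value was 8.01-fold for Hspb7 and 6.67-fold for Acta1, the nearest fold in the set. On the log2(RPKM + 1) scale the wildtype range was 1.04 for Hspb7, close to 0.94 for Cryab, against 2.6 for Acta1. The added 1 RPKM shrinks the range of a gene as low as Hspb7, so its nearness to Cryab belongs to that scale. Wildtype replicate 3 was the lowest for both Hspb7 and Acta1, at 0.163 and 0.165 times the mean of the other wildtype libraries. The Hspb7 value of that library rests on 8 reads, which limits how closely these folds can be compared. Cryab differed by 2.03-fold and Hspb6 by 1.32-fold among wildtype libraries, also with replicate 3 the lowest, at 0.596 and 0.765 times that mean. Hspb3, with at most 1 read in any wildtype library, was listed at 0 in wildtype replicate 3. Hspb1 differed by 1.29-fold and Hspb8 by 1.54-fold, both with replicate 1 the lowest. Hspb2 differed by 1.01-fold on equal read numbers, so no library is called its lowest. Bag3 differed by 1.70-fold and was highest in wildtype replicate 3. Among knockout libraries the spread ran from 1.10-fold for Bag3 to 1.71-fold for Hspb7, beside 1.24-fold for Acta1. There Hspb8, at 1.26-fold, was the nearest to Acta1.

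Set against Acta1 in the same library, the genes fell on different scales. Hspb7 stood at 1.84, 1.13 and 1.33 RPKM per 100 RPKM of Acta1 in knockout libraries, against 1.62, 2.50 and 2.08 in wildtype libraries, and the groups overlapped. Hspb3 stood at 0.207, 0.153 and 0.270 in knockout libraries, against 0.169, 0.138 and 0 in wildtype libraries, also with overlap. The wildtype values of Hspb3 rest on 2 reads in all, so nothing is read from its overlap. For the other 6 genes this proportion was lower in every knockout library than in every wildtype library. Acta1 itself was at least 342 RPKM in the knockout libraries and at most 57.0 RPKM in the wildtype libraries. A gene whose own level is unchanged thus falls in this proportion, as Bag3 did, so nothing is read from that direction. Cryab stood at 7.0, 4.94 and 7.56 per 100 RPKM of Acta1 in knockout libraries, against 22.8, 28.5 and 93.6 in wildtype libraries. Hspb6 stood at 9.32, 8.03 and 9.01 in knockout libraries, against 24.8, 20.7 and 104 in wildtype libraries. For Hspb1 the medians were 2.06 in knockout libraries and 24.4 in wildtype libraries, and for Bag3 they were 7.13 in knockout libraries and 57.0 in wildtype libraries. Dividing by Acta1 describes proportion in a library; the part of muscle RNA in the changes of Cryab, Hspb6, Hspb2 and Hspb8 was not tested.

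**Figure D3:**
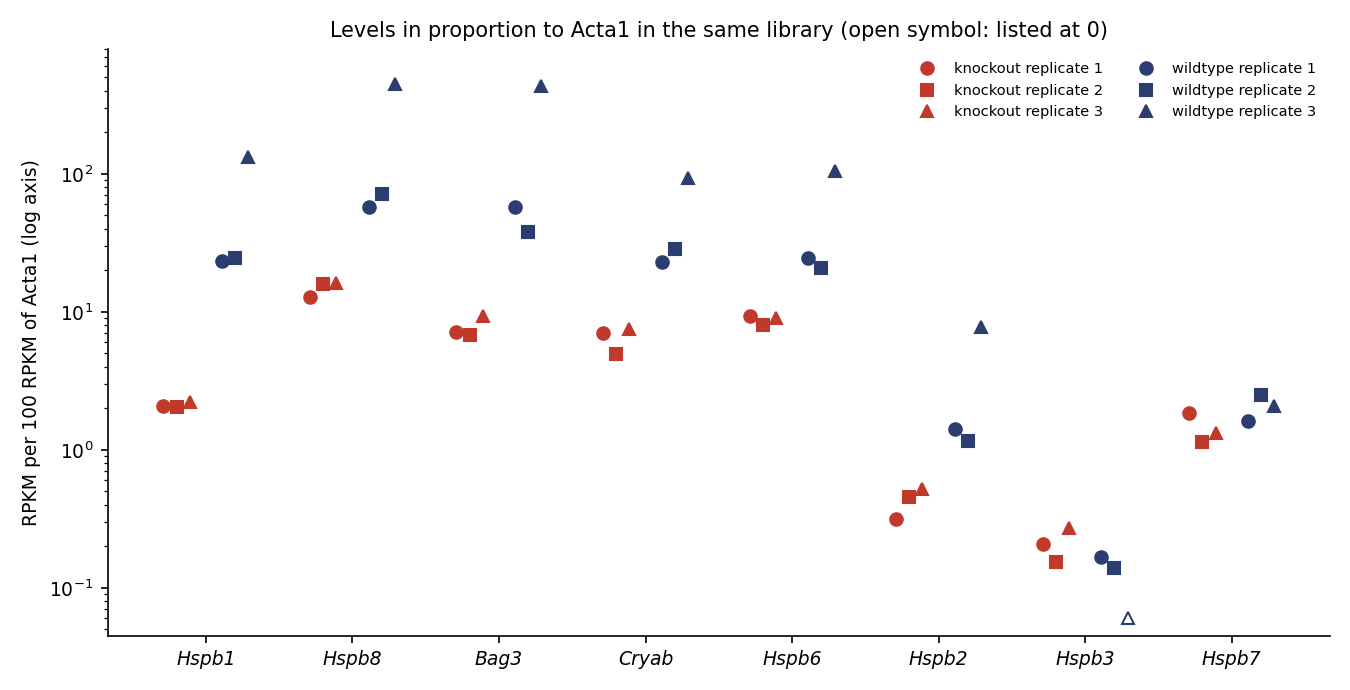
RPKM of each gene per 100 RPKM of Acta1 in the same library (log axis), with symbols for replicate numbers and an open symbol at the foot of the axis for Hspb3 listed at 0 in wildtype replicate 3. Hspb7 and Hspb3 overlap between the groups, though the wildtype points of Hspb3 rest on 2 reads in all. The other 6 genes lie lower in the knockout libraries, with wildtype replicate 3 the highest.

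Other cell types of the depot were followed by their markers. Brown adipocyte markers, Ucp1 included, summed to 4739 to 4782 RPKM in knockout libraries and 5638 to 7750 RPKM in wildtype libraries and were thus abundant in every library. Over all tested genes, 0.745% were called lower and 7.0% higher. Of the 11 tested brown adipocyte markers, 2 fell, Ucp1 and Prdm16, 1 rose and 8 did not pass. The gene that rose, Elovl3, an enzyme of fatty acid elongation named after its values were seen, was at 88.2 ± 22.4 RPKM in knockout libraries and 46.4 ± 11.8 RPKM in wildtype libraries. Prdm16, which steers precursors to the brown fat fate, stood at 3.24 ± 0.261 RPKM in knockout libraries and 4.98 ± 0.822 RPKM in wildtype libraries. None of the 9 general adipocyte markers passed, and the fatty acid carrier Fabp4 was at 8728 ± 471 RPKM in knockout libraries and 8384 ± 666 RPKM in wildtype libraries (SD, n = 3 each). None of 11 smooth muscle and pericyte markers passed either, at sums of 117 to 127 RPKM in knockout libraries and 130 to 146 RPKM in wildtype libraries, values given here since Hspb6 is also a gene of smooth muscle. Acta2, the smooth muscle actin, averaged 10.8 ± 0.988 RPKM in knockout libraries and 15.4 ± 5.01 RPKM in wildtype libraries.

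Heart markers summed to 3.39 to 4.11 RPKM in knockout libraries and 2.01 to 2.17 RPKM in wildtype libraries, with Nppb and Myl7 listed at 0 in all libraries, and Myl4, the 1 that was tested, rose. Most of each sum is Myl4, which averaged 3.03 RPKM in knockout libraries and 1.76 RPKM in wildtype libraries. The untested genes, named after their values were seen, were all under 1 RPKM. Myh6 and Tnni3 averaged lower in knockout libraries, Ryr2 and Tnnt2 higher, and Nppa hardly differed. The sums therefore describe Myl4 rather than the list. Among satellite cell and myoblast markers, Myf6, a regulator of muscle differentiation, was the 1 tested and rose, at 1.77 ± 0.273 RPKM in knockout libraries and 0.246 ± 0.245 RPKM in wildtype libraries, and the stem cell marker Pax7 was listed at 0. Myf6 entered the test only through the knockout group, where it is higher. The sums of the satellite cell and myoblast list were 1.97 to 2.85 RPKM in knockout libraries and 0 to 0.598 RPKM in wildtype libraries. Myf6 made up most of each sum above 0, so the sums describe that gene rather than the list. The highest value of any untested gene of the list was 0.295 RPKM, for Myog in knockout replicate 1. Of the fibroblast markers 1 of 7 rose, beside 7.0% of all tested genes. It was the collagen gene Col3a1, at 57.7 ± 7.50 RPKM in knockout libraries and 39.2 ± 5.72 RPKM in wildtype libraries. None of 8 endothelial, 7 macrophage and 4 Schwann cell and nerve markers passed, with sums of 148 to 165, 70.2 to 96.9 and 63.3 to 70.2 RPKM in knockout libraries, against 143 to 157, 43.7 to 70.2 and 45.8 to 75.3 RPKM in wildtype libraries. All 7 macrophage markers had a log2 change above 0, with a median of 0.47. Lyz2, which encodes lysozyme, was at 28.7 ± 2.66 RPKM in knockout libraries and 18.2 ± 4.76 RPKM in wildtype libraries, and C1qa, a complement gene, at 16.2 ± 3.78 RPKM in knockout libraries and 11.2 ± 1.91 RPKM in wildtype libraries (SD, n = 3 each). Lyz2 passed as higher with the replicate block and without wildtype replicate 2, and C1qa without knockout replicate 1. The calls of Prdm16, Myl4 and Col3a1 were each lost in 6 alternatives, among them those without knockout replicates 2 or 3 and without wildtype replicate 1. The part of these cell types in the values of the small heat shock genes was not tested.

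Genes of filament and Z-disc proteins were listed because small heat shock proteins are known to protect some of them, and their RNA mostly rose. Of 10 tested genes of this list, 8 rose, 1 fell and 1 did not pass, with a median log2 change of 1.12, beside 0.076 for all genes. Over all tested genes, 7.0% were called higher and 0.745% lower. Some of the 8 entered the test only through the knockout group, where they are higher. Actn2, the alpha-actinin of the muscle Z-disc, averaged 8.43 ± 1.60 RPKM in knockout libraries and 1.11 ± 0.414 RPKM in wildtype libraries, with a log2 change of 2.17 (SE 0.17, adjusted p = 0.000408 in limma). Myoz1, a Z-disc protein of fast fibres, averaged 31.3 ± 2.59 RPKM in knockout libraries and 2.82 ± 1.93 RPKM in wildtype libraries, and Pdlim3, a partner of alpha-actinin, 4.81 ± 0.510 RPKM in knockout libraries and 1.17 ± 0.505 RPKM in wildtype libraries. The gene that fell was Vim, the intermediate filament of cells other than muscle fibres, named after its values were seen, at 152 ± 18.8 RPKM in knockout libraries and 233 ± 39.3 RPKM in wildtype libraries. Most genes of the list belong to striated muscle, and the part of the fast fibre RNA described above in their levels was not tested.

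Among 15 genes of partners of BAG3 in chaperone-assisted autophagy, 3 rose, 1 fell and 11 did not pass, with a median log2 change of 0.07. Over all tested genes, 7.0% were called higher and 0.745% lower. Flnc, filamin C, the best known client of the complex, averaged 2.52 ± 0.242 RPKM in knockout libraries and 0.523 ± 0.326 RPKM in wildtype libraries, with a log2 change of 1.23 (SE 0.15, adjusted p = 0.00201 in limma). Synpo2, which ties the complex to membranes that engulf the client, averaged 2.42 ± 0.241 RPKM in knockout libraries and 0.956 ± 0.308 RPKM in wildtype libraries. Flnc and Synpo2 entered the test only through the knockout group, where they are higher, so their calls support nothing by themselves. The third that rose, Wipi1, a gene of autophagosome formation named after its values were seen, averaged 6.58 ± 0.346 RPKM in knockout libraries and 5.03 ± 0.0680 RPKM in wildtype libraries. The gene that fell was Hspa8, the constitutive HSP70 chaperone that takes the client from the small heat shock protein, at 44.3 ± 1.11 RPKM in knockout libraries and 71.6 ± 13.1 RPKM in wildtype libraries. None of the other 5 BAG family genes passed; the smallest p was that of Bag4, at 9.71 ± 1.13 RPKM in knockout libraries and 7.60 ± 0.792 RPKM in wildtype libraries (adjusted p = 0.109 in limma). Of the 5 other genes related to the small heat shock family, 1 was tested, Hspb11, named as such although its product is known as a part of the transport machinery of cilia. It averaged 7.04 ± 0.296 RPKM in knockout libraries and 8.42 ± 1.23 RPKM in wildtype libraries and did not pass, and Cryaa, the lens alpha-crystallin, was listed at 0.

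Of 16 tested chaperones known as targets of HSF1, 3 fell, none rose and 13 did not pass, with a median log2 change of -0.49. These are 14 cytosolic chaperones and, in Hspd1 and Hspe1, 2 of the mitochondrial matrix. Over the cytosolic ones alone, a division made after the values were seen, 3 fell and 11 did not pass. Over all tested genes, 0.745% were called lower and 7.0% higher. The list was chosen with earlier results known, so nothing is read from its count. Hsph1, an exchange factor of HSP70, stood at 8.38, 8.71 and 10.9 RPKM in knockout libraries, against 15.5, 20.5 and 39.0 RPKM in wildtype libraries, with a log2 change of -1.24 (SE 0.28, adjusted p = 0.0337 in limma). Wildtype replicate 3, the library with the least Acta1, was the highest, and without it the change was -0.87. The summed level of the 16 genes was 560 to 611 RPKM in knockout libraries and 717, 717 and 919 RPKM in wildtype libraries, again highest in replicate 3. Hsp90ab1, the constitutive cytosolic HSP90, averaged 237 ± 12.2 RPKM in knockout libraries and 344 ± 47.2 RPKM in wildtype libraries, and the third was Hspa8, which both lists hold. The calls of all 3 were lost without any 1 of the knockout replicates. Those of Hspa8 and Hsp90ab1 were also lost without wildtype replicate 1, and those of Hsph1 and Hsp90ab1 with no filter on low values. Hspa8 and Hsp90ab1 have processed copies elsewhere in the genome, so their levels are uncertain to the extent that reads were shared. The 4 tested genes of heat shock factors and their regulators did not pass: Hsf1 stood at 10.3 ± 1.18 RPKM in both groups, and Hsf2 at 4.11 ± 0.533 RPKM in knockout libraries and 3.52 ± 0.370 RPKM in wildtype libraries. Hsf4 stood at 1.56 ± 0.375 RPKM in knockout libraries and 1.57 ± 0.0544 RPKM in wildtype libraries, and Hsbp1, whose product binds HSF1, at 67.1 ± 3.84 RPKM in knockout libraries and 71.2 ± 5.58 RPKM in wildtype libraries. Of the 4 genes of the set with GAAGTTTC in their windows, 1 was lower in knockout libraries (Hspb1), 2 were higher (Hspb6 and Hspb8) and 1 overlapped (Bag3). Without overlap, 24.3% of all tested genes were higher and 5.14% lower in knockout libraries. That sequence was chosen after it was seen, so nothing is read from this count.

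**Figure D4:**
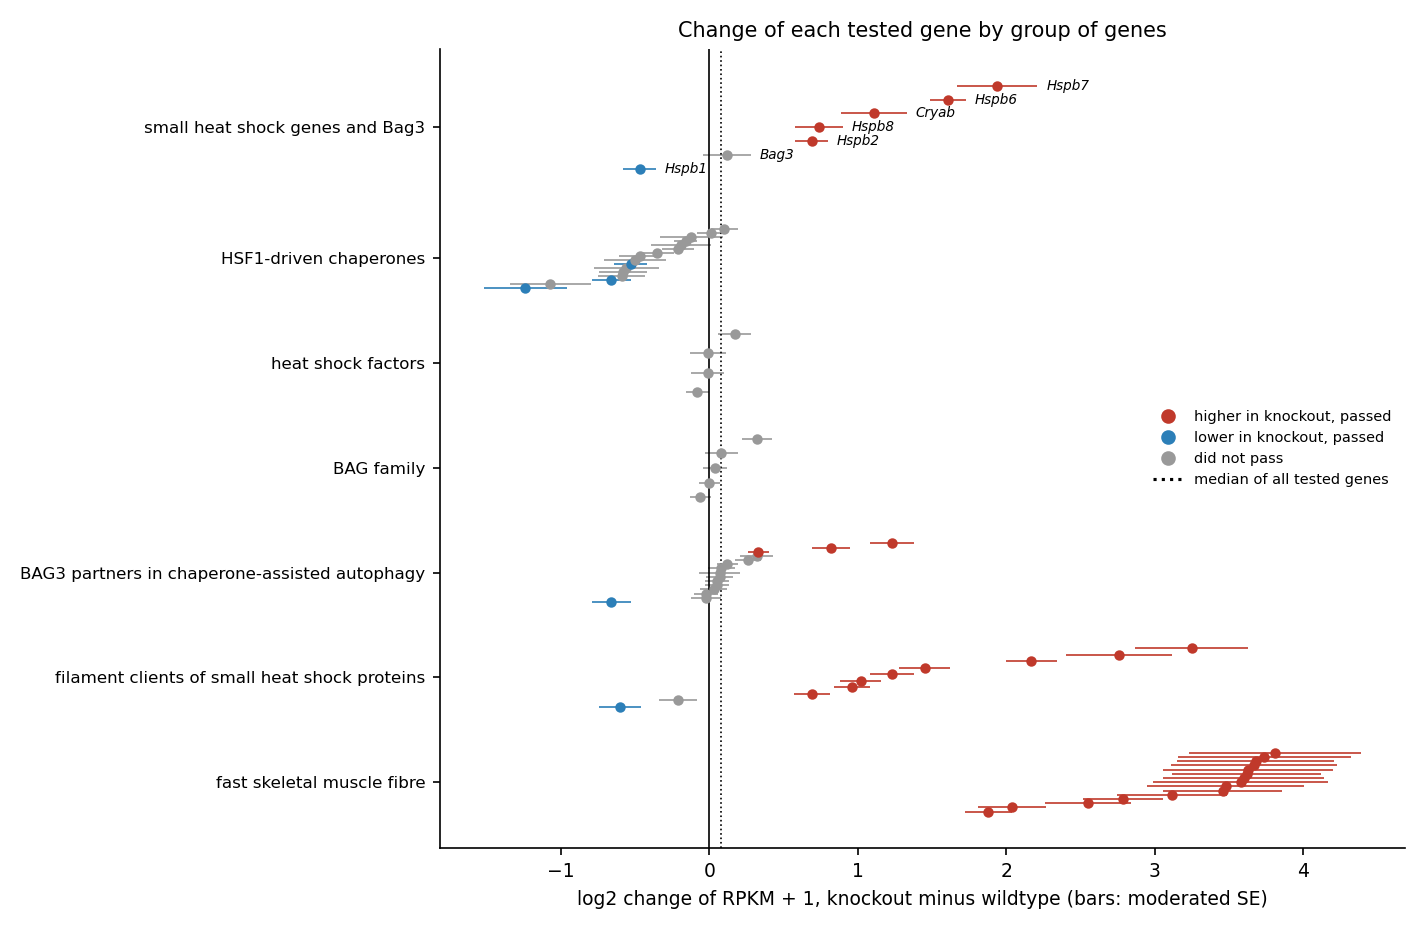
Log2 change of RPKM + 1, knockout minus wildtype, for each tested gene of 7 gene groups; points are estimates, bars are moderated SE, colours mark the result of the limma test, and the dotted line is the median of all tested genes, 0.076. The small heat shock genes run from -0.47 for Hspb1 to 1.94 for Hspb7, beside the chaperones driven by HSF1 (median -0.49) and the fast fibre markers (median 3.58).

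Ratios between the small heat shock genes show the change in make-up within each library. The ratio of Hspb6 to Hspb1 was 4.16 ± 0.314 in knockout libraries and 0.903 ± 0.145 in wildtype libraries. That of Cryab to Hspb1 was 3.07 ± 0.569 in knockout libraries and 0.953 ± 0.229 in wildtype libraries, and that of Hspb8 to Hspb1 was 7.08 ± 0.841 in knockout libraries and 2.94 ± 0.481 in wildtype libraries (SD, n = 3 each). For these 3 ratios the libraries of the groups did not overlap. That had to follow, since Hspb1 alone was lower and the other genes of these ratios were higher in every knockout library. It therefore adds nothing to their levels. The ratios of Hspb2 to Cryab and of Hspb8 to Bag3, given above, overlapped.

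For each gene of the set that passed, the genes with the nearest profile were sought by the root-mean-square difference in log2(RPKM + 1) over the 6 libraries, after each gene's own mean was subtracted. Since the profiles include the difference between knockout and wildtype, this is a description of likeness on that scale. The added 1 RPKM shrinks the changes of low genes, so a low gene with a larger fold can lie near an abundant gene with a smaller one. Nearest to Hspb7 were Lmod2 at 0.124, Myl3 at 0.151 and Nrap at 0.164, while Acta1 lay at 1.07. Myl3, the slow myosin light chain, stood at 12.9, 5.64 and 5.81 RPKM in knockout libraries, against 0.479 to 2.26 RPKM in wildtype libraries, with knockout replicate 1 the highest as for Hspb7. Nearest to Hspb6 were Dhrs7c at 0.042, Smyd1 at 0.068 and Scn4b at 0.088, with Acta1 at 1.28. These low genes were 10.04-fold, 6.80-fold and 6.78-fold higher in knockout libraries by their means, against 3.24-fold for Hspb6, so their fold changes are not alike. Nearest to Cryab were Flnc at 0.141 and Sbk2 and Phkg1 at 0.160 each, with Acta1 at 1.46. By their means, Flnc was 4.81-fold, Sbk2 2.46-fold and Phkg1 3.43-fold higher in knockout libraries, against 2.20-fold for Cryab.

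The nearest genes of the others had smaller differences between the groups. For Hspb8 they were Tenm4 at 0.089, Amotl1 at 0.102 and Hist1h1c at 0.114, and for Hspb2 they were Wars at 0.043, Clmp at 0.050 and Cpeb4 at 0.062. Wars, which encodes a transfer RNA synthetase, stood at 20.5, 27.1 and 23.4 RPKM in knockout libraries, against 14.4, 14.3 and 13.8 RPKM in wildtype libraries, higher in every knockout library. For Hspb1 the nearest were Sphk2 at 0.061, Sytl1 at 0.064 and Ltbp2 at 0.070, with Acta1 at 2.24. Sphk2, a kinase of sphingosine, stood at 13.4, 13.5 and 12.7 RPKM in knockout libraries, against 17.1, 19.9 and 16.4 RPKM in wildtype libraries, lower in every knockout library.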

How the data were processed

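RNA-seq libraries from 3 knockout and 3 wildtype samples were made with a TruSeq kit, per the labels' protocols, and CASAVA and bcl2fastq appear in the submitters' processing notes. Of the aligner, counter, genome build and use of strand, each is not given in the sources used here. One table was deposited by the authors, a table of RPKM with 168326 transcript rows, of which 13.8% have no gene identifier and were left out. Low values were whole multiples of 1 read, within 0.1 reads, for 96.2% to 96.3% of values over 46002 transcripts of known length. Read numbers given for single genes come from these steps.

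One row per gene was kept, RefSeq rows first and then the highest mean, giving 29072 genes. The test was limma 3.58.1 in R 4.3.3 with an intensity trend on log2(RPKM + 1), for genes whose knockout or wildtype mean reached 1 RPKM. It was tested on simulated data. The members of the set, the 6 pathway lists and the 11 marker lists were chosen with earlier results of these data known; 1 gene of the Schwann cell and nerve list is not reported here and was left out of that list's count and sums. Beside the 8 genes, Acta1 and Ucp1, the text names up to 3 passing genes per pathway list with the smallest adjusted p, or else the 1 with the smallest p. From each marker list it names up to 2 by the same order, or else by level. It also names the 3 most similar genes per passing member. Promoter windows are RefSeq's. The 14 alternatives cover pseudocount, filter, scaling, choice of row, trend, replicate block and each library left out.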

Additional observations from a re-analysis of the deposited data

How the results depend on the processing

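Of 796 values of single genes under the alternatives, 707 kept their direction and their side of the threshold, 71 were no longer past it, 3 came past it (macrophage markers Lyz2 and C1qa) and 15 reversed. The count of genes past the threshold was 894. It was 452 with a filter of at least 5 RPKM and 457 to 850 with 1 library left out, the lowest without knockout replicate 2, and without knockout replicate 1 it was 477. Of the 8 genes of the set, 6 passed, and 3 to 6 passed with 1 library left out, with 3 without knockout replicate 1 or without knockout replicate 3. The samples share only a replicate number: deviations of same-numbered libraries correlated at 0.089, 0.038 and -0.018, not every library correlated best with its own number, and with the replicate block 778 genes and 6 of the set passed.

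The reversed values are log2 changes of genes that did not pass. With 1 library left out, Bag3 ranged from -0.05 (without wildtype replicate 2) to 0.32, Hsf1 from -0.09 to 0.06, Hsf4 from -0.11 to 0.10, the adipocyte marker Lpl from -0.11 to 0.06, the endothelial marker Pecam1 from -0.11 to 0.01, and the nerve markers Pmp22 and Mbp from -0.00 to 0.25 and from -0.22 to 0.51. With rows summed Hsf4 was at 0.01, and after median-of-ratios scaling Fabp4 was at -0.04 and the endothelial marker Cdh5 at -0.02. The cause of these changes was not tested. Depth limits Hspb3 and Hspb2, which rest on at most 13 and 18 reads per library, and Hspb7 in wildtype replicate 3, which rests on 8.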
